A study of Homo sapiens with 6 samples.

Results

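The glucocorticoid receptor NR3C1, its chaperones and a set of genes that glucocorticoids induce were followed across 6 RNA-seq libraries of MM.1S, a human multiple myeloma cell line known for its sensitivity to steroids. The 9 genes were chosen by name, with earlier results of these data known. They are the receptor NR3C1, the HSP90 co-chaperones FKBP5, FKBP4 and PTGES3, and the induced genes TSC22D3, PER1, DUSP1, KLF9 and SGK1. All 9 were found among the 12760 genes of the deposited table, and all 9 passed the filter on low values. FKBP5 is both a co-chaperone and an induced gene.

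Cells made resistant to lenalidomide (LenR, 3 libraries) were set against DMSO-treated cells (WT, 3 libraries). Selection began at 10 nM, with a 10-fold higher dose each month for 3 months. Both groups carry the same genotype label, so WT marks the solvent control. No glucocorticoid is named in the treatment of either group, so the levels are those of cells in serum-supplemented medium without added steroid as far as the labels say. Whether lenalidomide was present at harvest, and whether the 3 resistant replicates were selected separately, is not given in the sources used here. The p-values therefore measure the spread between these cultures.

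The glucocorticoid receptor is a ligand-activated transcription factor. Without hormone it is held in the cytoplasm by HSP90 and co-chaperones. The p23 protein (PTGES3) stabilises the hormone-binding form, FKBP5 (FKBP51) lowers hormone affinity, and its exchange for FKBP4 (FKBP52) favours transport to the nucleus. Bound receptor activates genes that blunt inflammation and stress kinase signalling, and in lymphoid and plasma cells it leads to growth arrest and apoptosis, the basis of dexamethasone treatment of myeloma.

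Recovered reads came to between 14500140 and 17387914 per library. The second principal component (26.8% of the variance) set WT replicate 3 and LenR replicate 2 apart from the others. WT replicates 1 and 2 lay closest together, with a mean chi-square per gene of 1.83 (1 for sampling noise alone, 9.28 to 23.5 for the other within-group pairs), and were kept as separate samples. All 10 plasma cell marker genes looked up were in the table, with a summed level of 4040 to 4650 FPKM in WT and 4725 to 5657 FPKM in LenR. Markers of T and NK cells (2 of 7 in the table) summed to 3.07 to 4.11 FPKM over all libraries, and none of the 6 myeloid or 3 B cell markers was in the table.

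Promoter windows from RefSeq (GRCh38.p14; 250 bases before to 50 bases after a transcription start) were matched for 8 of the 9 genes, 20 windows in all. They were searched on both strands for the palindromic glucocorticoid response element (a pair of half-sites facing each other across 3 bases), for the half-site AGAACA, for the cAMP element TGACGTCA and for the E-box CACGTG, which clock proteins and MYC bind. A window with the full element also counts for the half-site. The full glucocorticoid element was in none of the 20 windows and in 0.0114% of all 35116 windows. The half-site was in 2 of the 20 windows (10%, against 14.8% of all windows), the E-box in 3 (15%, against 7.26%) and the cAMP element in 1 (5%, against 1.85%). Receptor binding sites often lie far from a start, and sequence outside these windows was not searched. Whether the E-box relates to the change of a gene between the groups was not tested. The upstream 250 bases of the 3 windows with an E-box are shown. They are written 5′ to 3′ on the strand of the gene, with the E-box and, in DUSP1, the cAMP element before it in capitals.
DUSP1 (chr5:172771196-172771445, minus strand): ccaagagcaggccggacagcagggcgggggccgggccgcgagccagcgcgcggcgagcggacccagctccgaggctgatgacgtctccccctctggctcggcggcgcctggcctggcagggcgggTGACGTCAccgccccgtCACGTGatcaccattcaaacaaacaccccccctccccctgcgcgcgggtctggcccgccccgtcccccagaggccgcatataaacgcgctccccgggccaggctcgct
PER1 (chr17:8152405-8152654, minus strand): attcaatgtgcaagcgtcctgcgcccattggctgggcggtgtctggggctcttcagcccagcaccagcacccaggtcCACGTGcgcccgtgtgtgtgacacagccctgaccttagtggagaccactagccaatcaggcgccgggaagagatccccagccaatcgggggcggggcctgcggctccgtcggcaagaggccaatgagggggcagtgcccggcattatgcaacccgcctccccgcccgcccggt
FKBP5, second start (chr6:35688916-35689165, minus strand): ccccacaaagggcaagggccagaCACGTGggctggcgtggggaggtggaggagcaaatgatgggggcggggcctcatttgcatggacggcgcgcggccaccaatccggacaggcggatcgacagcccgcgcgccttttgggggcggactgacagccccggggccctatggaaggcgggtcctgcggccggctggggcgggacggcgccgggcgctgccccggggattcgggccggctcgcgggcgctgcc

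The E-box began 108 bases before the start of DUSP1, 173 bases before that of PER1 and 227 bases before the second start of FKBP5. The cAMP element of DUSP1 began 125 bases before its start. Both half-sites lay just after a start, in FKBP5 and in SGK1, and are shown with 10 bases on each side and the half-site in capitals.
FKBP5, first start (chr6:35728568-35728593, minus strand): ccactaccccAGAACAaactcctacc
SGK1, middle of 3 starts (chr6:134177841-134177866, minus strand): ggttcataacAGAACAgggatagccg

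Several classical targets of the receptor differed between the groups, and the receptor transcript itself did not pass the test. NR3C1, KLF9, FKBP4 and PTGES3 did not pass the test. SGK1, DUSP1, FKBP5 and TSC22D3 were lower in LenR, and PER1 was higher. Expression is given as FPKM (fragments per kilobase of transcript, relative to sequencing depth), which allows levels of different genes to be compared. Fold changes are differences of log2(FPKM + 1) between LenR and WT, tested with limma over 11276 genes and called at an adjusted p below 0.05. Of the 9 genes, 5 were called, 1 higher and 4 lower. Over all genes tested 15.1% were called, 8.57% higher and 6.57% lower. The WT and LenR values did not overlap for 6 of the 9 genes, a pattern seen in 34.5% of all genes tested. The median log2 fold change of the 9 was -0.077, against -0.002 over all genes tested.

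**Figure D1:**
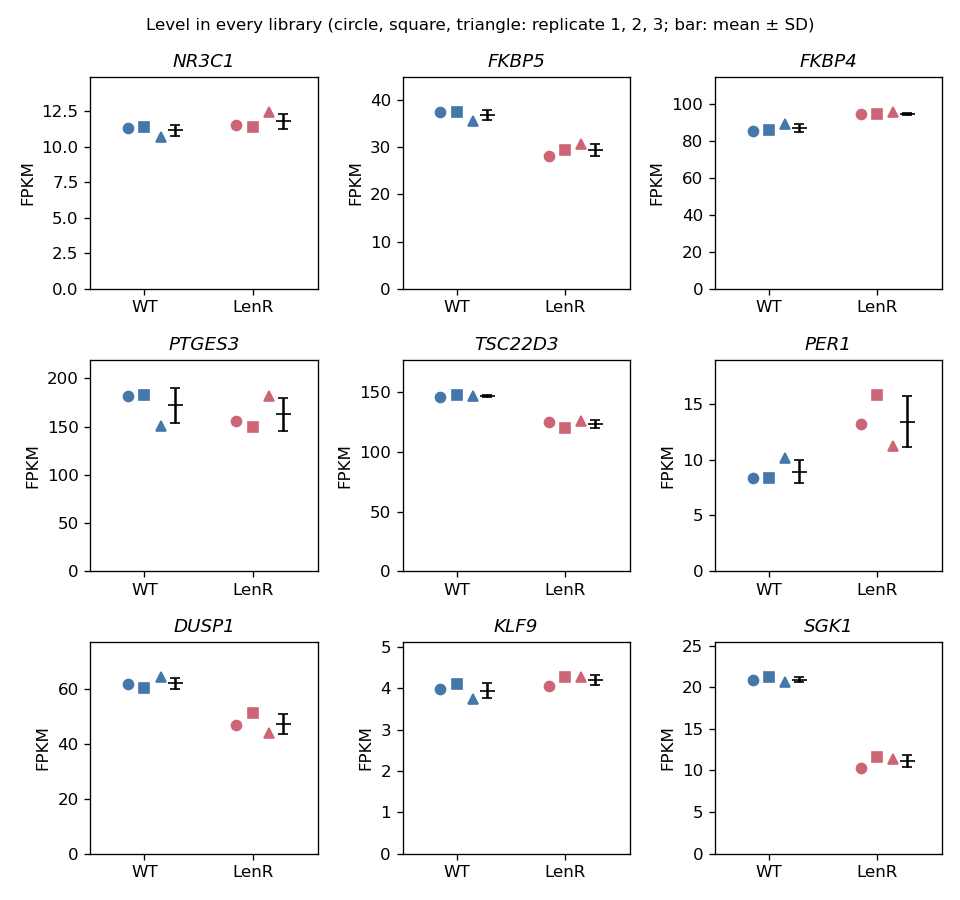
Level (FPKM, axes from 0) of each of the 9 genes in the 3 WT and 3 LenR libraries, with replicate 1, 2 and 3 as circle, square and triangle and the group mean ± SD as a bar. SGK1, DUSP1, FKBP5 and TSC22D3 lie lower in every LenR library than in any WT library, and PER1 and FKBP4 lie higher.

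NR3C1 (chromosome 5, 143277931 to 143435512, minus strand; positions here and below are of whole genes in RefSeq, GRCh38.p14) measured 11.3, 11.4 and 10.7 FPKM in WT replicates 1 to 3 against 11.5, 11.4 and 12.4 FPKM in LenR replicates 1 to 3. These values rest on 1475 to 2055 reads per library, and the groups overlapped. The log2 fold change was 0.07 (SE 0.065, limma, adjusted p = 0.527), with a 95% interval from -0.08 to 0.22. The level was mid-range, between the 52.4th and 56.1st percentile of all genes in every library. The table gives 1 value per gene, so the receptor's splice forms were not analysed here.

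The receptor gene lies before a stretch of chromosome 5 in which transcripts were lower in LenR. That stretch was known from earlier results of these data, so the counts that follow describe it and do not test it. On the side of higher coordinates, 7 genes were tested within 5 Mb of NR3C1, with a median log2 fold change of 0.008, none lower past the threshold and 2 higher. One of these, SH3RF2, reached the filter on low values only through its LenR level, and the call of the other, JAKMIP2 (0.33, adjusted p = 0.0234), ended on removal of any WT library or of LenR replicate 2 or 3 (adjusted p up to 0.0761). Between 5 and 10 Mb on that side all 23 tested genes were below 0, with a median of -0.645, and 18 of them were called lower. The nearest gene of that stretch, FBXO38 at 5.06 Mb, was among those not called (-0.12, limma, adjusted p = 0.244). On the side of lower coordinates the 45 genes within 5 Mb had a median of -0.010, with 7 called higher and 2 lower. Over both sides, 21.2% of the 52 genes within 5 Mb were called, SH3RF2 included, against 15.1% of all genes tested. The 3 called genes nearest to NR3C1 were all higher and all on that side: ARHGAP26, 0.357 Mb away (0.38), PCDH1, 1.49 Mb away (0.58), and RELL2, 1.72 Mb away (0.54).

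**Figure D2:**
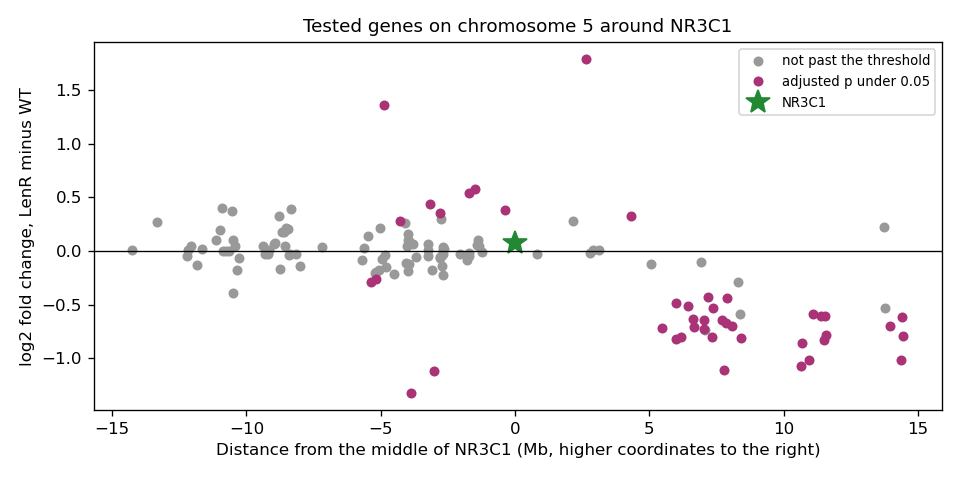
Log2 fold change (LenR minus WT) of tested genes on chromosome 5 against their distance from the middle of NR3C1 in Mb, with called genes in purple and NR3C1 as a star. NR3C1 (0.07) sits among genes with a median near 0 (0.006 within 5 Mb), of which 21.2% were called. All 23 genes between 5 and 10 Mb to the right lie below 0.

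Genes within 5 Mb of each of the other 8 genes had median log2 fold changes between -0.065 (SGK1, 32 genes) and 0.051 (FKBP5, 60 genes). DUSP1 lies on the same chromosome arm as NR3C1, and the 51 genes within 5 Mb of it had a median of -0.045. Of these, 2 were lower and 1 higher past the threshold (5.88%, against 15.1% of all genes tested). For SGK1, 2 of the 32 surrounding genes were called lower and none higher (6.25%).

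Among the co-chaperones, FKBP5 was lower in LenR and FKBP4 and PTGES3 did not pass. FKBP5 (chromosome 6, 35573590 to 35728583) measured 37.4, 37.4 and 35.6 FPKM in WT against 28.2, 29.5 and 30.7 FPKM in LenR. Every LenR value lay below every WT value, a mean 1.25-fold lower (log2 fold change -0.31, SE 0.065, limma, adjusted p = 0.0154). The call ended on removal of WT replicate 1 or 2 or of LenR replicate 1 (adjusted p up to 0.0891) and with WT replicates 1 and 2 averaged (0.0834). FKBP4 (chromosome 12, 2794970 to 2805423) measured 85.5, 86.1 and 89.3 FPKM in WT against 94.5, 94.5 and 95.5 FPKM in LenR. Although the groups did not overlap, the log2 difference of 0.12 (SE 0.064, 95% interval from -0.03 to 0.27) did not pass the test (limma, adjusted p = 0.256). Antisense genes overlap FKBP4 in GENCODE 29, and with no strand setting given their reads cannot be told apart.

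The level of FKBP5 relative to FKBP4 was lower in every LenR library than in any WT library. The ratio of the 2 FPKM values was 0.438, 0.434 and 0.399 in WT and 0.298, 0.312 and 0.321 in LenR, or 0.424 ± 0.0213 against 0.310 ± 0.0116 (SD, n = 3 per group). The difference of the log2 ratios was -0.45 (exact permutation test over libraries, two-sided, p = 0.1, the smallest value that 3 against 3 can give).

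PTGES3 (chromosome 12, 56663349 to 56688284) was the most abundant of the 9, with 182, 183 and 151 FPKM in WT against 156, 150 and 182 FPKM in LenR. The groups overlapped (log2 fold change -0.08, SE 0.111, 95% interval from -0.33 to 0.18, limma, adjusted p = 0.719). The lower values came from WT replicate 3 and from LenR replicates 1 and 2, so that its spread within each group (10.5% and 10.4% of the mean) was larger than the difference between the means (-5.23%). GENCODE 29 lists 5 pseudogenes named after PTGES3 and 5 named after FKBP4, so reads shared with such copies make both levels less certain.

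HSP90AA1, the inducible HSP90 gene, fell from 147 ± 4.43 to 115 ± 6.39 FPKM (SD, n = 3 per group; log2 fold change -0.35, limma, adjusted p = 0.0179). HSP90AB1, the constitutive form, had a mean of 915 ± 13.8 FPKM in WT against 849 ± 55.3 FPKM in LenR (-0.11, adjusted p = 0.496). The call of HSP90AA1 ended on removal of WT replicate 1 or 2 or of LenR replicate 1 (adjusted p up to 0.105). In a list of 23 chaperones and co-chaperones of the receptor, 21 were tested. None was called higher and 2 were called lower, FKBP5 and HSP90AA1. The list had 15 genes below 0 and a median log2 fold change of -0.084. Its share of called genes, 9.52%, was below that of all genes tested (15.1%). Neither call remained on removal of WT replicate 1 or 2 or of LenR replicate 1.

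SGK1 showed the strongest change of the 9 genes. It encodes a serum- and glucocorticoid-induced kinase that regulates ion channels and survival signalling. SGK1 (chromosome 6, 134169256 to 134318112) measured 20.9, 21.2 and 20.6 FPKM in WT against 10.3, 11.6 and 11.4 FPKM in LenR. The lowest WT value lay far above the highest LenR value, and the mean was 1.89-fold lower in LenR (log2 fold change -0.86, SE 0.068, limma, adjusted p = 0.000203). Only 0.931% of all genes tested had a lower log2 fold change. SGK1 passed in all 20 alternative fits, with adjusted p from 6.14e-05 to 0.00347.

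DUSP1 encodes a phosphatase that switches off p38 and JNK kinases and mediates part of the anti-inflammatory action of glucocorticoids. DUSP1 (chromosome 5, 172768096 to 172771195) measured 61.9, 60.4 and 64.4 FPKM in WT against 46.9, 51.2 and 43.9 FPKM in LenR. Its groups did not overlap, and the mean was 1.31-fold lower in LenR (log2 fold change -0.39, SE 0.078, limma, adjusted p = 0.0129). The call ended without WT replicate 1 (adjusted p = 0.0598) or LenR replicate 1 (0.0542) and with WT replicates 1 and 2 averaged (0.0523). An antisense gene overlaps DUSP1 in GENCODE 29, and its reads cannot be told apart either.

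TSC22D3 encodes GILZ, a leucine zipper protein and one of the most used readouts of receptor activity in lymphoid cells. TSC22D3 (chromosome X, 107713221 to 107775988) measured 146, 148 and 147 FPKM in WT against 125, 120 and 126 FPKM in LenR. The SD of the WT libraries was 0.667% of their mean, all LenR values lay below them, and the mean was 1.19-fold lower (log2 fold change -0.25, SE 0.067, limma, adjusted p = 0.0466). The call was close to the threshold: removing any single library ended it (adjusted p from 0.068 to 0.192) and with WT replicates 1 and 2 averaged (0.183). It was also lost with quantile normalization, rescaling to the same FPKM total, robust moderation or a minimum of 5 FPKM. TSC22D3 overlaps the coding gene NCBP2L on the opposite strand.

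PER1, a clock repressor that glucocorticoids and cAMP induce rapidly, moved the other way. PER1 (chromosome 17, 8140472 to 8152404) measured 8.32, 8.35 and 10.1 FPKM in WT against 13.2, 15.8 and 11.2 FPKM in LenR. The groups did not overlap, but the highest WT value (replicate 3) and the lowest LenR value (replicate 3) lay close together. The mean was 1.5-fold higher in LenR (log2 fold change 0.53, SE 0.127, limma, adjusted p = 0.0291). The call ended on removal of replicate 1 or 2 of either group (adjusted p up to 0.104), and the log2 fold change without 1 library ranged from 0.41 to 0.64. The coding gene AC129492.3 overlaps PER1 on the same strand in GENCODE 29, and reads in the overlap may be split between them.

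KLF9, a Krüppel-like factor and an early receptor target, was the lowest of the 9 genes. KLF9 (chromosome 9, 70384604 to 70414657) measured 3.99, 4.11 and 3.74 FPKM in WT against 4.06, 4.27 and 4.27 FPKM in LenR, and the groups overlapped. Its log2 fold change was 0.07 (SE 0.063, limma, adjusted p = 0.523), with a 95% interval from -0.08 to 0.22.

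**Figure D3:**
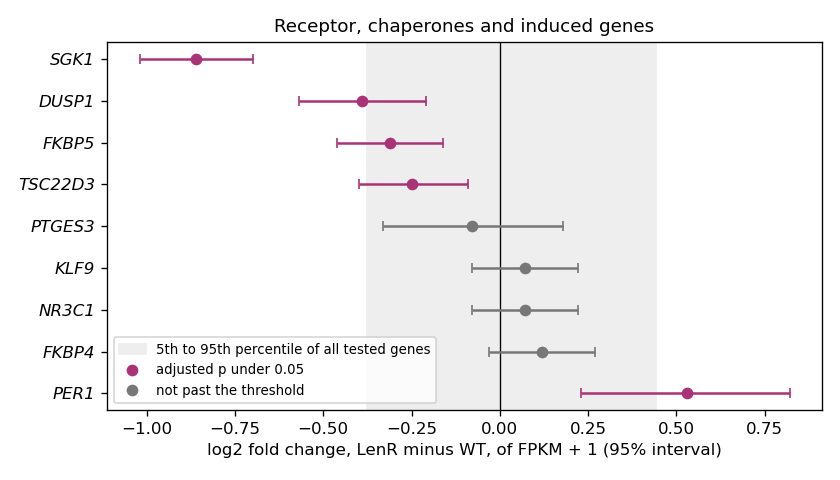
Log2 fold change (LenR minus WT, FPKM + 1) of the 9 genes with 95% intervals, purple where adjusted p was under 0.05, and the 5th to 95th percentile of all tested genes (-0.38 to 0.44) in grey. SGK1 (-0.86) and DUSP1 (-0.39) lie below that range and PER1 (0.53) above it.

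The order of the levels differed between groups through SGK1 and PER1. In both groups PTGES3 was highest, followed by TSC22D3, FKBP4, DUSP1 and FKBP5, and KLF9 was lowest. In WT the values of neighbours in this order did not overlap, with SGK1 (20.9 FPKM) above NR3C1 (11.1 FPKM) and NR3C1 above PER1 (8.94 FPKM). In LenR PER1 (13.4 FPKM) stood above NR3C1 (11.8 FPKM) and NR3C1 above SGK1 (11.1 FPKM), and the values of each of these pairs overlapped.

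Across the 6 libraries the genes whose log2 level was most like that of NR3C1, among 8309 genes averaging 5 FPKM or more, were UBE2D2 (Pearson r = 0.997), PGM3 (0.995) and CD86 (0.993). Their own log2 fold changes were 0.07, 0.12 and 0.11, and none passed. Among the 9 genes with that mean level, the correlation with NR3C1 ran from -0.81 (DUSP1) to 0.56 (PTGES3). These are descriptions of 6 libraries that share 2 groups and a second axis of variation.

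Of 45 listed glucocorticoid-induced genes, 36 were tested, 4 were called higher and 7 lower, and 25 did not pass, with a median log2 fold change of -0.048. The count of 11 became 2 on removal of replicate 1 of either group, and 3 when WT replicate 2 was removed. Without the genes described above, 30 were tested, with 3 higher and 3 lower (20%, against 15.1% of all genes). KLF15, a Krüppel-like factor induced directly by the receptor, measured 6.93, 6.64 and 6.88 FPKM in WT against 15.8, 17.5 and 13.9 FPKM in LenR. Its groups lay far apart, and the log2 fold change of 1.09 (SE 0.087, limma, adjusted p = 0.000216) was the highest of the list. IRS2, an adaptor of the insulin receptor, rose from 3.11 ± 0.361 to 4.35 ± 0.447 FPKM (0.38, adjusted p = 0.0302). BIRC3, an inhibitor of apoptosis, fell from 15.8 ± 1.39 to 11.3 ± 1.1 FPKM (-0.45, adjusted p = 0.0144). RGS2, a regulator of G protein signalling, fell from 66 ± 5.01 to 49 ± 5.39 FPKM (-0.43, adjusted p = 0.0243). The call of KLF15 survived the removal of any single library. Those of IRS2 (adjusted p up to 0.113), RGS2 (0.105) and BIRC3 (0.0653) each ended on removal of WT replicate 1 or 2 or of LenR replicate 1, and those of IRS2 and RGS2 also on removal of LenR replicate 2. Other textbook targets were tested and did not pass, among them NFKBIA (0.29), DDIT4 (-0.23), TXNIP (0.05) and the proapoptotic BCL2L11 (-0.09).

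**Figure D4:**
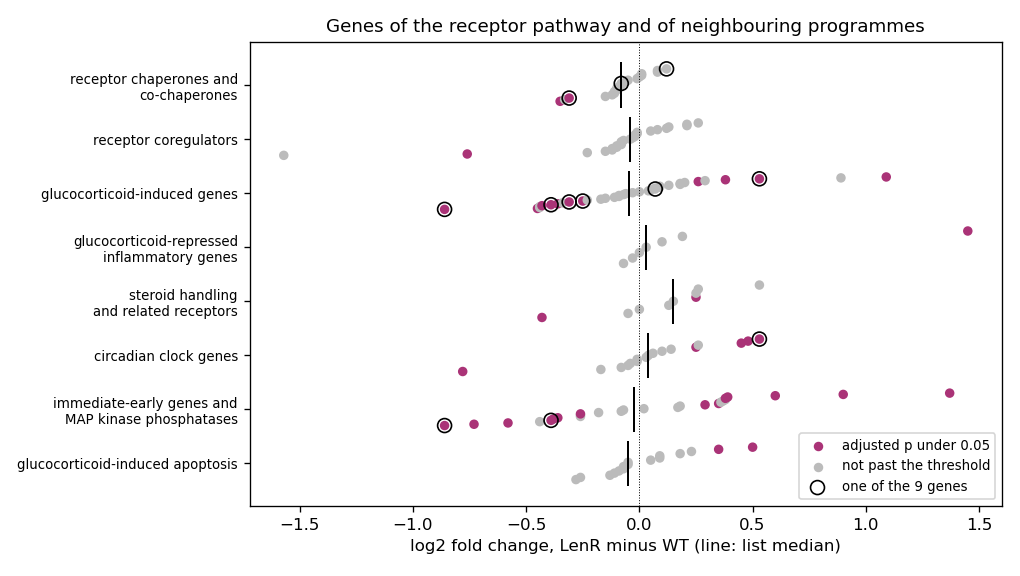
Log2 fold change (LenR minus WT) of every tested gene in 8 lists around the receptor, with called genes in purple, the 9 genes ringed and each list's median as a line. List medians lie between -0.084 and 0.154. Called genes lie on both sides of 0 in the lists of induced, clock, immediate-early and steroid-handling genes.

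SGK1 and DUSP1 also belong to the immediate-early genes, which serum, stress and kinase signals induce within minutes. Of 26 such genes and MAP kinase phosphatases tested, 7 were called higher and 7 lower (53.8%, against 15.1% of all genes tested), and without SGK1 and DUSP1 the counts were 7 and 5 of 24. The count of 14 became 7 on removal of WT replicate 1, 8 on removal of WT replicate 2 and 9 on removal of LenR replicate 1. FOS fell from 64 ± 3.79 to 42.7 ± 4.55 FPKM (-0.58, limma, adjusted p = 0.00459) and FOSB from 17.2 ± 1.35 to 9.97 ± 1.31 FPKM (-0.73, adjusted p = 0.00227), both subunits of the AP-1 factor. EGR1, a zinc finger factor of the same class, rose from 1.51 ± 0.453 to 5.49 ± 1.28 FPKM (1.37, adjusted p = 0.00133). DUSP2, a phosphatase of the same family as DUSP1, rose from 5.35 ± 0.148 to 10.9 ± 0.383 FPKM (0.90, adjusted p = 0.000121). These 4 calls survived the removal of any single library.

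Among the clock genes, PER1 and its relative PER2 changed in opposite directions. PER2 measured 3.94, 4.01 and 4.69 FPKM in WT against 1.96, 2.11 and 2 FPKM in LenR, with no overlap (-0.78, SE 0.077, limma, adjusted p = 0.000491). Of 17 clock genes tested, 4 were called higher and 1 lower (29.4%, against 15.1% of all genes tested). The count of 5 became 2 on removal of either WT replicate 1 or 2, and 3 on removal of either LenR replicate 1 or 2. Higher besides PER1 were BHLHE41 (0.45, adjusted p = 0.00183), a repressor of the clock, the transcription factor DBP (0.48, adjusted p = 0.0199) and NR1D2 (0.25, adjusted p = 0.0328), a nuclear receptor that represses clock genes. Removing any single library ended the call of NR1D2 (adjusted p up to 0.127). The call of DBP ended on removal of WT replicate 1 or 2 (0.0798). ARNTL (-0.17), CLOCK (-0.04), CRY1 (0.03) and CRY2 (0.04), which form the core loop with the PER proteins, did not pass.

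The mineralocorticoid receptor NR3C2, which binds the same hormones and shares target genes with NR3C1, had a mean of 1.37 ± 0.104 FPKM in WT against 1.36 ± 0.141 FPKM in LenR (SD, n = 3 per group; limma, adjusted p = 0.992). PGR was not analysed here. In the list of steroid-handling genes and related receptors, 9 were tested and 2 called (22.2%, against 15.1% of all genes tested), with NR1D2 higher and the orphan receptor NR4A1 lower (2.2 ± 0.181 to 1.38 ± 0.166 FPKM, -0.43, adjusted p = 0.0107). Removing any single library except WT replicate 3 left 1 call in this list, and the replicate block left 0. The call of NR1D2 ended on removal of any single library, whereas that of NR4A1 survived each removal.

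Of 25 coregulators of the receptor tested, none was called higher and 1 was called lower (4%, against 15.1% of all genes tested). The lower one was CBX3, a heterochromatin protein (107 ± 15.8 to 63 ± 10.6 FPKM, -0.76, limma, adjusted p = 0.0119). That call ended without WT replicate 1 or LenR replicate 1 (adjusted p up to 0.0573). Genes around CBX3 on chromosome 7 were not analysed here, so a change shared with its neighbours was not tested. SMARCB1, among the 25, passed the filter on low values only through its WT level. The coactivators NCOA1 (-0.02), NCOA2 (0.05) and NCOA3 (-0.10) and the corepressor NCOR1 (-0.07) did not pass.

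Of the inflammatory genes that glucocorticoids repress, 7 were tested and 1 was called, higher (14.3%, against 15.1% of all genes tested). This was ICAM1, an adhesion molecule, with 2.19, 2.29 and 3.37 FPKM in WT against 8.61, 9.88 and 7.88 FPKM in LenR (1.45, SE 0.133, limma, adjusted p = 0.000386). The NF-kB subunits RELA (0.03), NFKB1 (-0.03), NFKB2 (-0.07) and RELB (0.19) did not pass.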

How the data were processed

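RNA-seq was done on 6 MM.1S cultures. The deposited table gives FPKM values made by the authors, 1 column per library, assigned to samples by the column names in the labels. The submitters' processing notes list edgeR 3.40.2, featureCounts 2.0.3, HISAT2 2.2.1, FastQC 0.11.9 and the build hg38, with no roles. The annotation, strand setting and filter for expressed genes were not given in the sources used here. The steps of the values gave back whole numbers of reads, to within 0.03, for all 12760 genes.

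Genes averaging 1 FPKM or more (11276; 1484 left out) were tested on log2(FPKM + 1) with limma 3.58.1 in R 4.3.3 (group as only term, empirical Bayes with a trend, two-sided, Benjamini-Hochberg over all genes tested, threshold 0.05). Intervals use 7.75 degrees of freedom. Positions came from RefSeq (GRCh38.p14; 98.3% of genes). The fit was tested on simulated data. Alternatives were the replicate block, 2 pseudocounts, 2 filters, 3 scalings, 2 moderations, voom on the reads, WT replicates 1 and 2 as their mean, fitting or removing WT replicate 3 and LenR replicate 2, and leaving out each library.

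The 9 genes, the 8 lists and the alternatives were chosen with earlier results of these data known. Named from each list were at most 2 called non-members per direction, by size of change, and further named were HSP90AA1, HSP90AB1 and NR3C2, the 3 genes most like NR3C1 and the 3 called genes nearest to it. Genes given as not passing were named after their values were seen. Figures were drawn with matplotlib 3.10.9. Some results are not reported here.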

Additional observations from a re-analysis of the deposited data

How the results depend on the processing

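Of the 9 genes, SGK1 passed and NR3C1, FKBP4, PTGES3 and KLF9 did not in every alternative fit that held them (KLF9 fell out at a minimum of 5 FPKM), and no direction reversed. The number called was 1 with the replicate block or with WT replicates 1 and 2 averaged, against 5, and 1 to 4 with 1 library left out: 1 on removal of replicate 1 of either group, 2 on removal of WT replicate 2 and 3 on removal of LenR replicate 2. Over all genes, 1707 calls became 907 with the replicate block, 1052 with WT replicates 1 and 2 averaged, 1075 at a minimum of 5 FPKM, 3163 when the pair WT replicate 3 and LenR replicate 2 had its own term, and 1006 to 1562 with 1 library left out. Same-numbered libraries did not deviate together (correlations 0.024, -0.557 and -0.683), so the replicate block pairs numbers only. In that block the called induced genes numbered 2 (against 11), the immediate-early genes 5 (14) and the clock genes 2 (5). There the FKBP5 to FKBP4 log2 ratio stayed at -0.45, and it ranged from -0.49 to -0.42 with 1 library left out. Genes within 2 Mb of NR3C1 had a median of 0.051, against 0.006 within 5 Mb. Why these counts differ was not tested. Fits that leave out libraries or genes also hold fewer samples or genes. Without WT replicate 3 and LenR replicate 2, 1824 genes were called and all 5 calls held. KLF9, with 285 to 389 reads per library, had the fewest reads of the 9 genes.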

Other observations

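Of 16 genes tested that act in glucocorticoid-induced apoptosis of lymphoid cells, 2 were called higher and none lower by limma (12.5%, against 15.1% of all genes tested). The median log2 fold change of the 16 was -0.053. The number called was 1 without WT replicate 2, LenR replicate 1 or LenR replicate 3, and 4 without LenR replicate 2. The proapoptotic BBC3 (PUMA) rose from 5.89 ± 0.587 to 8.76 ± 0.771 FPKM (SD, n = 3 per group; 0.50, adjusted p = 0.00785), and the antiapoptotic BCL2 from 16 ± 1.55 to 20.7 ± 0.726 FPKM (0.35, adjusted p = 0.0248). The call of BCL2 ended without WT replicate 2, LenR replicate 1 or LenR replicate 3 (adjusted p up to 0.0834). BMF (-0.28), PMAIP1 (-0.13) and MCL1 (-0.07) did not pass.

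A few further genes were chosen after their values were seen. SMARCB1, a subunit of the chromatin remodelling complex that works with the receptor, measured 4.65, 0.744 and 7.09 FPKM in WT and 0.585, 0.445 and 0.336 FPKM in LenR. WT replicate 2 lay near the LenR values. No test of SMARCB1 is given because it passed the filter on low values only through its WT level. SH3RF2, 2.65 Mb from NR3C1, had a mean of 0.151 ± 0.106 FPKM in WT against 3.01 ± 0.703 FPKM in LenR, and no test is given because it passed the filter on low values only through LenR. CEBPB, a transcription factor and receptor target, measured 1.51, 1.63 and 2.01 FPKM in WT and 6.25, 4.28 and 2.28 FPKM in LenR, with no overlap (0.89, limma, adjusted p = 0.0541).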
